A study of Homo sapiens with 3 samples.

Results

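The chorionic gonadotropin beta gene cluster on chromosome 19 was examined for binding of SMAD2/3, the transcription factors that TGFβ receptors activate. Its members were all listed SMAD2/3 peaks that overlap positions 49510000 to 49575000 of chromosome 19 on hg19. This window holds LHB, CGB1, CGB2, CGB5, CGB8 and CGB7, the genes named with it. In the RefSeq gene order CGB3 lies between LHB and CGB2, so the window holds CGB3 too. There were 10 such peaks of 5486 in all, 4 of 2206 at 1.5 h and 6 of 3280 at 16 h. The members were chosen by the positions of the peaks themselves, since the stretch stood out for its run of peaks at both times. Their number and closeness are therefore a description and carry no test.

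Both libraries came from MCF10A MII, an H-Ras-transformed derivative of human breast epithelial cells. Cells received 5 ng/ml TGFβ3, and SMAD2/3-bound chromatin was collected for 1 ChIP-seq library after 1.5 h and 1 after 16 h. Input DNA of untreated cells completes the series and is not analysed here. No ChIP sample without TGFβ3 is among the samples, so the peaks show sites bound under TGFβ3 and not a change caused by it. Each time has a single library, so values carry no replicate error and differences between the times were not tested. The lists give neither read numbers nor depth.

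The genes of this cluster encode beta subunits of hormones that share a common alpha subunit. LHB encodes the beta subunit of luteinizing hormone, which the pituitary makes to drive the gonads. CGB3, CGB5 and CGB8 encode the beta subunit of chorionic gonadotropin, the hormone by which the placental trophoblast maintains early pregnancy, and CGB7 encodes a closely related form of it. CGB1 and CGB2 are primate copies whose upstream sequence differs from that of the other CGB genes. Production of the beta subunit outside the placenta is known from many epithelial tumours. SMAD2 and SMAD3 enter the nucleus with SMAD4 after TGFβ receptors phosphorylate them. SMAD3 and SMAD4 recognise short DNA motifs such as CAGAC, usually beside other factors such as AP-1.

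In the RefSeq gene table for GRCh38.p14, the genes follow each other in the order GYS1, RUVBL2, LHB, CGB3, CGB2, CGB1, CGB5, CGB8, CGB7, NTF4 and KCNA7, with noncoding genes, pseudogenes and the protein-coding gene SAXO3 in between. CGB2 and CGB5 lie on the plus strand. LHB, CGB3, CGB1, CGB8 and CGB7 lie on the minus strand. CGB1 and CGB5 thus point away from each other, and the stretch between them is upstream of both. It holds 3 other entries, namely the small RNA gene SNAR-G1 and the pseudogenes NTF6B and LOC100287453. The stretch between CGB8 and CGB7 is upstream of CGB8 and downstream of CGB7, and holds the pseudogene LOC100287489. Pseudogenes of like name, NTF6A and NTF6G, and a second small RNA gene, SNAR-G2, lie between CGB3 and CGB2. The sequences of these entries were not compared.

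The similarity of the CGB copies limits what a short read can show, and the reference promoters give a measure of it. The 250 bases upstream of CGB5 and CGB8, the genes beside the middle and the last of the peak sites described below, are printed for this reason. They come from RefSeq on GRCh38.p14, at chr19:49043598-49043847 on the plus strand for CGB5 and at chr19:49049112-49049361 on the minus strand for CGB8. These positions cannot be set beside the hg19 positions of the peaks. Each is written 5′ to 3′ in the direction of its gene, and capitals mark the bases that differ from or are missing in the other.
CGB5: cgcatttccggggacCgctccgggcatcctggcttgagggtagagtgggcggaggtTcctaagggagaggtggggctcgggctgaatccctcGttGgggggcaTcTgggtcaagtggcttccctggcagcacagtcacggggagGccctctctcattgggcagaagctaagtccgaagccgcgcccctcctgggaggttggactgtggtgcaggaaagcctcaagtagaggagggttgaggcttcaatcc
CGB8: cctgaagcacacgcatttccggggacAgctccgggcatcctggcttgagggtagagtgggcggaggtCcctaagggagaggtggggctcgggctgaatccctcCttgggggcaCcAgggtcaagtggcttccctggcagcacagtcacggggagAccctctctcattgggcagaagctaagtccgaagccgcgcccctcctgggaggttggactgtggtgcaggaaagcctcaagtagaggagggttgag
Over 239 aligned bases the sequences differed at 6, with 1 further base in CGB5 that CGB8 lacks, and their longest identical stretch was 95 bases. CGB8 begins 11 bases farther upstream and CGB5 ends 10 bases farther downstream, and these ends are left in lower case.

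The upstream sequence of CGB3 was as close to both. It matched CGB5 at 241 of 249 aligned bases and CGB8 at 235 of 240, with longest identical stretches of 80 and 74 bases. A read of 36 bases from these promoters would often have had more than 1 exact place. Of the 215 windows of 36 bases in each promoter, 103 in CGB3 (47.9%), 100 in CGB5 (46.5%) and 97 in CGB8 (45.1%) also occurred in another promoter of the cluster. At 50 bases, 41 of 201 windows in CGB3 (20.4%), 62 in CGB5 (30.8%) and 46 in CGB8 (22.9%) still did. The read length is not given in the sources used here, and these window lengths serve as examples.

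CGB1 and CGB2 formed a second, less similar pair. Their upstream sequences are printed because CGB1 lies beside the first peak site and because both carry TGACGTCA, the full cyclic AMP response element, which capitals mark. GGCGCC, a GC-rich motif of the kind SMAD proteins can bind, is also in capitals in CGB1. The sequences are from RefSeq on GRCh38.p14, at chr19:49036896-49037145 on the minus strand for CGB1 and at chr19:49031640-49031889 on the plus strand for CGB2.
CGB1: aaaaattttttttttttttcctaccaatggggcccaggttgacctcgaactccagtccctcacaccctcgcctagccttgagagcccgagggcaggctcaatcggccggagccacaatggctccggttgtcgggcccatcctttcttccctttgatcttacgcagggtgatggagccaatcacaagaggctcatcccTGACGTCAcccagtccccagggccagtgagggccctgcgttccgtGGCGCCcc
CGB2: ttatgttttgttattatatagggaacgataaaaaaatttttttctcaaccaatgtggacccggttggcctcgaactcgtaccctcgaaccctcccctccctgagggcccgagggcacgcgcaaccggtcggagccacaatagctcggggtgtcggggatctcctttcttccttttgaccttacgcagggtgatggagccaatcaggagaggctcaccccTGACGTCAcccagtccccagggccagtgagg
They matched at 189 of 221 aligned bases, with a longest identical stretch of 34 bases, and none of their windows of 36 bases was found in another promoter of the cluster. With 25 bases, 12 of 226 windows (5.31%) were shared in each. In these 250 bases, LHB and CGB7 shared no stretch longer than 9 bases with any of the other cluster promoters. The 250 bases were counted from each annotated start, and such starts need not lie at matching places of the copies. The values therefore do not show that LHB and CGB7 differ from the other copies elsewhere. No window of 25 bases in LHB occurred in any other promoter of the table, whereas 20 in CGB7 occurred in the promoter of SAXO3.

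**Figure D1:**
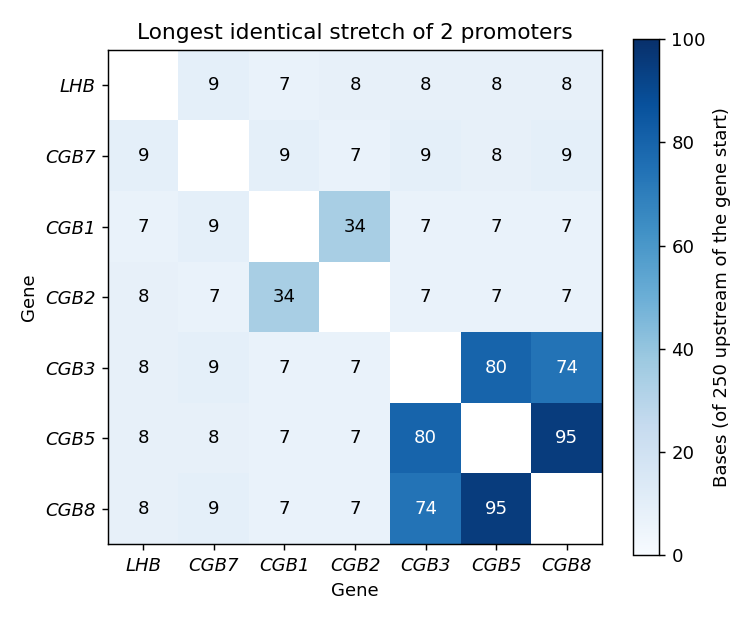
Longest stretch of identical bases, in bases, between the 250 bases upstream of each pair of the 7 genes, both read in the direction of the gene (both axes list genes, and colour and number give the length). CGB3, CGB5 and CGB8 share stretches of 74 to 95 bases, CGB1 and CGB2 share 34, and all other pairs share 9 or fewer.

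The 7 promoters were searched for motifs of SMAD proteins and of factors known to act beside them or in trophoblast. Among 35116 promoters of the table, cut to the same 250 bases, CAGAC or its reverse complement was present in 38.0%, and in the cluster only CGB7 held it, 1 time. TGAGTCA and its reverse complement TGACTCA, the AP-1 site, were found in 4.20% of all promoters and in none of these 7. GTCTAGAC, the palindromic SMAD site, occurred in 0.182% of all promoters and in none of the 7. GGCGCC occurred in 16.4% of all and in CGB1. TGACGTCA occurred in 1.65% of all and in CGB1 and CGB2, starting 53 and 31 bases before the annotated gene start. GCCNNNGGC, a site of the TFAP2 family that acts in trophoblast, occurred in 19.8% of all and in CGB7. Both strands were searched. The counts in the 7 promoters were not tested against the shares over all promoters. Of the 7, 3 are near-identical copies, and CGB1 and CGB2 also resemble each other, so the promoters are not independent. The sequence under the peaks was not read, since no hg19 genome was used, so the matches describe the promoters and not the bound sequence.

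The 10 peaks formed 3 sites, joining peaks under 500 bp apart. The first, called the CGB1-side site, spans 49541883 to 49542375 (493 bp). It begins 1.9 kb from the stretch that holds CGB2 and CGB1, approximately 49535 to 49540 kb, and ends about 4.6 kb before CGB5 at approximately 49547 kb. The second, the CGB5-side site, spans 49545521 to 49545669 (149 bp) and lies about 1.3 kb before CGB5. The third, the CGB8-side site, spans 49553605 to 49554152 (548 bp), about 2.6 kb past CGB8 at approximately 49551 kb and 3.8 kb before CGB7 at approximately 49558 kb. These gene positions are given to 1 kb only, and which part of a gene they mark is not stated. On GRCh38.p14 the annotated starts of CGB5, CGB8 and CGB7 lie farther apart than these positions do. The positions need not be gene starts, and the distances are approximate. Distances to the gene starts were not computed. Whether a peak lies in an exon, intron or UTR was not determined, because no hg19 annotation was used. Set beside the strands above, all 3 sites lie on the upstream side of a CGB gene. The first is in the divergent stretch of CGB1 and CGB5, and the second in the same stretch nearer CGB5. The third is upstream of CGB8 and also downstream of CGB7. Every place between CGB1 and CGB5, or between CGB8 and CGB7, is upstream of a CGB gene. The upstream position thus follows from the stretches in which the sites lie. Gaps of 3.15 and 7.93 kb separate the sites.

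**Figure D2:**
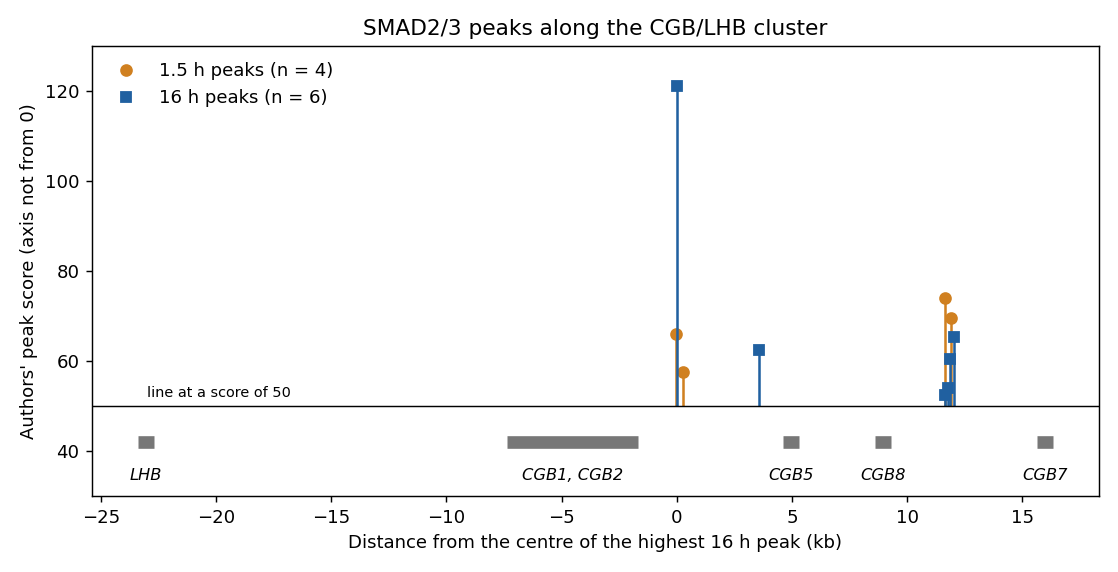
Authors' score (vertical axis, not beginning at 0) of the 4 peaks at 1.5 h (circles) and the 6 at 16 h (squares) against distance in kb from the centre of the highest 16 h peak. Grey bars mark approximate gene positions on hg19, with 1 bar for CGB1 and CGB2. The peaks fall into 3 groups between CGB1 and CGB7, and none lies near LHB.

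The CGB1-side site was listed at both times and held the highest score of the cluster. At 1.5 h it was listed as peaks of 271 and 129 bp, the first from 49541883 to 49542153 (score 66.0) and the second from 49542247 to 49542375 (score 57.6). At 16 h it was 1 peak of 229 bp, from 49541920 to 49542148, and scored 121. This peak lay wholly within the first 1.5 h peak, and their midpoints were 16 bp apart. The second 1.5 h peak had no 16 h partner. The 16 h peak ranked 279 of 3280, above 91.5% of its list. The 1.5 h peaks ranked 1054 and 1585 of 2206, above 52.2% and 27.3% of theirs. The place of the site within its own list was thus higher at 16 h than at 1.5 h. No source defines the score, the depths are unknown, and the difference was not tested.

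The CGB5-side site was listed at 16 h only. Its single peak of 149 bp scored 62.5 and ranked 1064 of 3280, above 67.3% of the list. The nearest 1.5 h peak was the second one of the CGB1-side site. A score this close to the lowest listed score of 50 leaves unknown whether the site was unbound at 1.5 h or just missed the authors' threshold.

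The CGB8-side site was listed at both times, in more pieces at 16 h. At 1.5 h it comprised a peak of 129 bp from 49553615 to 49553743, whose score of 74.1 was the highest of the cluster at that time, and one of 306 bp from 49553793 to 49554098, which scored 69.6. They ranked 812 and 914 of 2206. At 16 h it comprised 4 peaks, whose scores from left to right were 52.4, 54.0, 60.4 and 65.3 and whose widths were 138, 76, 107 and 196 bp. They ranked 2476, 1916, 1218 and 938 of 3280, and the first of them was above only 24.0% of its list. Each of the 4 overlapped a 1.5 h peak. The first covered 128 of the 129 bp of the narrower 1.5 h peak. The other three overlapped the wider one by 34, 107 and 142 bp.

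The 4 pieces at 16 h were separated by gaps of only 8, 10 and 13 bp, while the 1.5 h peaks lay 49 bp apart. Gaps of up to 20 bp were rare, 83 of 3256 between neighbouring peaks in the 16 h list and 102 of 2183 in the 1.5 h list. The CGB8-side site was the only place in the 16 h list where 4 or more peaks followed each other at such gaps, and the 1.5 h list had 0, but the limits of 20 bp and 4 peaks were set after this site was seen. Summed over the pieces, the listed peaks covered 435 bp of this site at 1.5 h and 517 bp at 16 h, so the larger number of peaks at 16 h was not accompanied by a comparable increase in length. With neighbours under 500 bp apart merged, the cluster held 2 sites at 1.5 h and 3 at 16 h.

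**Figure D3:**
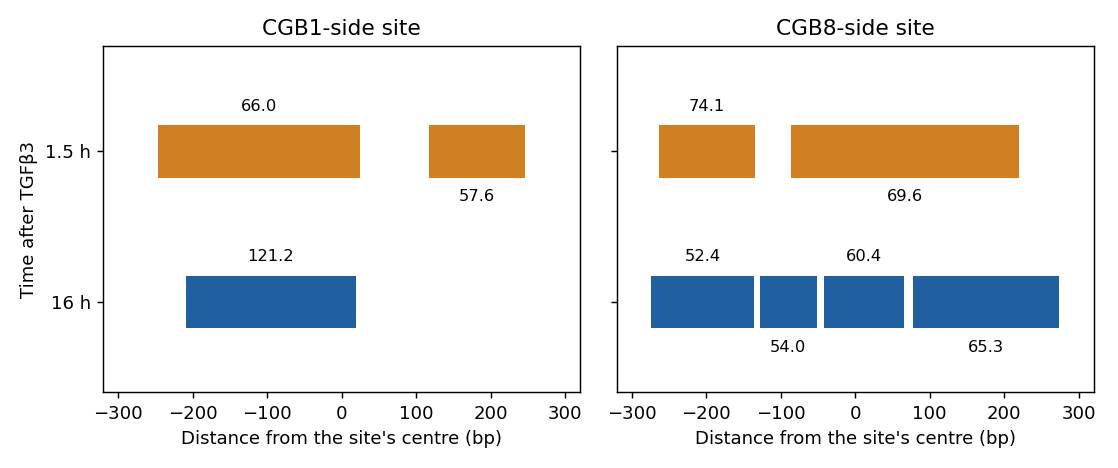
Listed peaks of the CGB1-side site and the CGB8-side site, drawn to scale as bars against distance in bp from the centre of each site, with 1.5 h above and 16 h below and each peak's score beside its bar. The single 16 h peak of 121 lies within the first 1.5 h peak at the CGB1-side site, and 4 adjoining 16 h peaks span both 1.5 h peaks at the CGB8-side site.

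Most peaks of the cluster overlapped a peak of the other time. By an overlap of at least 1 bp this held for 3 of 4 at 1.5 h (75.0%, 95% exact binomial interval 19.4 to 99.4%) and 5 of 6 at 16 h (83.3%, interval 35.9 to 99.6%). In the whole lists the shares were 25.3% at 1.5 h and 16.6% at 16 h. Among peaks of the score range of the cluster they were 123 of 793 (15.5%) at 1.5 h and 320 of 2215 (14.4%) at 16 h. The intervals cover counting error only and treat peaks as independent, although 3 of the 5 shared 16 h peaks overlap the same 1.5 h peak. Counted by site, 2 of 3 were listed at both times. A reciprocal overlap of 50% left 2 shared peaks at each time. Because the stretch was picked for holding peaks of both times, its share is a description.

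Scores in the cluster were moderate. They ranged from 57.6 to 74.1 at 1.5 h, around the list's median of 64.9, and 3 of 4 were above it. None reached the upper quartile of 90.3. At 16 h they ranged from 52.4 to 121, 4 of 6 were above the list's median of 56.2, and only the peak at the CGB1-side site was above the upper quartile of 68.8. The highest scores anywhere were 1839 at 1.5 h and 1650 at 16 h. Peak widths were 129 to 306 bp against a list median of 130 bp at 1.5 h, and 76 to 229 bp against 108 bp at 16 h.

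**Figure D4:**
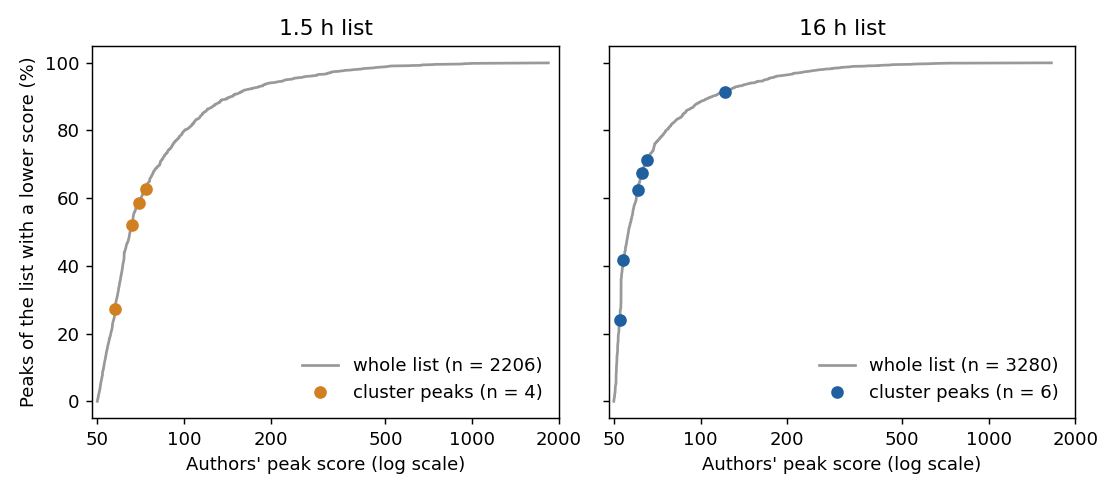
Percentage of peaks with a lower score (vertical axis) against the authors' score (horizontal log axis) for each whole list (grey line) and for the cluster's peaks (points). The cluster's 1.5 h peaks sit between 27.3 and 62.7%, and its 16 h peaks between 24.0 and 91.5%.

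Spacing beyond the window was set only beside the median gap of each list. No peak of either list lay in the 65 kb on either side, but neighbouring peaks of a list were a median of 364 kb apart at 1.5 h and 443 kb at 16 h. The nearest peaks outside were at 49064927 to 49065022 (1.5 h, score 53.9) and 49033776 to 49033849 (16 h, score 53.0), 445 and 476 kb before the window. On the far side they were 1706 kb away at 1.5 h (51280994 to 51281110, score 51.0) and 1898 kb away at 16 h (51472639 to 51473074, score 135). The 10 peaks made up 4 of the 66 peaks of chromosome 19 at 1.5 h (6.06%) and 6 of 88 at 16 h (6.82%). Where peaks of both lists at most 10 kb apart were joined into runs, all 10 fell into 1 run of 12.3 kb. Among 3989 runs, 5 held 10 or more peaks, and 3 of these 5, this one included, had at least 3 peaks at each time. The others of the 3 held 7 peaks at 1.5 h and 3 at 16 h, on chromosome 10, and 10 and 3, on chromosome 20. The stretch was picked for such a run, so this is a description.

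Not every gene of the cluster had a peak beside it. LHB was 23 kb from the nearest peak at both times. CGB7 was 3.9 kb from the nearest 1.5 h peak and 3.8 kb from the nearest 16 h peak, but these lie on the side of its end, not of its start. No peak was listed before the first position of the stretch with CGB2 and CGB1, so that neither CGB2's upstream side nor the part of the window that adjoins LHB held any. CGB3, which is not among the genes whose hg19 positions were at hand, follows LHB in the gene order, and no peak was listed between LHB and CGB2. How Bowtie was set to treat reads that fit several places is not given in the sources used here. Depending on that setting, a read from 1 copy could have been dropped, assigned to another copy or counted at a random one. Similarity was measured only in the 250 bases before each gene. The peaks lie about 1.3 kb or more from the gene positions used, which need not be gene starts. Whether reads could be placed uniquely under the peaks was not computed. With this unknown, the lists alone do not settle which copy was bound, and a copy with no peak is not shown to be unbound.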

How the data were processed

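The authors deposited 1 BED list of SMAD2/3 peaks per ChIP library, with a score per peak and no header. Per the submitters' processing notes, Bowtie 1.1.0, Picard and MACS 1.4.2 were used with hg19. Not given in the sources used here are their settings, how duplicate and multiply mapped reads were handled and whether the input served as control. Deposited scores began at 50. As no source defines them, scores served to rank peaks within a list. Gene positions on hg19 were those given with the window, to 1 kb, and need not mark gene starts. Sequences and gene order came from RefSeq tables for GRCh38.p14, where all 7 genes searched were found, and coordinates were not converted.

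Starts were made 1-based, and peaks overlapping by at least 1 bp were called shared. Intervals are exact Clopper-Pearson. Promoters were cut to 250 bases before the start and aligned with Biopython 1.88 (end gaps free). Exact windows were sought on both strands. Python 3.11.15, numpy 2.4.6, pandas 2.3.3, scipy 1.17.1 and matplotlib 3.10.9 were used, and the overlap code was tested on simulated data. Depth is unknown. All peaks in the window, the 6 genes given with it and their neighbours were named by rule. The members and lists were chosen with earlier results of these data known. Alternatives concerned score, list length, merging, window and overlap.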

Additional observations from a re-analysis of the deposited data

How the results depend on the processing

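Of 36 values under 9 alternatives, 25 stayed within 1.5 times the reported one. They included all under a window widened by its length on each side and under the stretch from the first to the last approximate gene position. All under nearly equal list lengths and with gaps of up to 500 bp allowed were included too. Tied scores of 52.99 were kept there, so that 2324 peaks were left at 16 h against 2206 at 1.5 h. With a score of at least 100, the numbers of peaks were 0 at 1.5 h and 1 at 16 h, and 0 were shared at either time. With a score of at least 60, 3 peaks were shared at 16 h. Merging neighbours under 500 bp apart gave 2 and 3 peaks, with 2 shared at 16 h. Merging those up to 20 bp apart, an alternative chosen after seeing the data, gave 3 peaks at 16 h, of which 2 were shared. A reciprocal overlap of 50% left 2 shared at 16 h. Fewer or joined peaks follow from how these alternatives are built. No paired analysis was possible because there is 1 library at each time, which also means that none could be left out. As depth is unknown, whether a site listed at 1 time was missed at the other was not tested.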
